A study of Homo sapiens with 2 samples.

Results

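The 51 genes described here build, anchor or cut the mitotic spindle: kinesin motors, spindle and centrosome proteins, the kinases that time their work, the cytokinesis machinery, and the transcription factors and proliferation genes that accompany them. They were chosen by symbol from a list, by a rule that uses no measured value, although earlier results of these data were known when the list was drawn up. All 51 were found among 48898 gene symbols, of which 16650 were expressed at 1 RPKM (reads per kilobase of transcript, scaled to library size) or more in at least 1 library. All 51 members passed that filter. The libraries came from C4-2B, an androgen-independent, bone-metastatic prostate cancer line derived from LNCaP. Cells of the control group received the vehicle DMSO, and cells of the other group 2.5 µM MA4-022-1, which the labels call an inhibitor of BET proteins and kinases. The labels name no genetic change in either group. The length of the exposure is not stated in the labels. With 1 library per group there is no replicate check of any difference, and no p-values are given. The study set out to find genes that such tumours need for growth and that the compound affects.

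Mitosis separates copied chromosomes on a bipolar array of microtubules. Centrosomes, each built around a pair of centrioles, organise the poles, kinesins slide and shorten microtubules, and Aurora and polo kinases switch these proteins on in order. As the chromosomes part, crosslinked microtubules of the central spindle recruit the factors that close the contractile ring. Most of these genes are transcribed in G2 and M phase, driven by the MuvB complex with B-MYB (MYBL2) and then FOXM1, and are low in resting cells. BET proteins bind acetylated chromatin and support transcription elongation.

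Low values moved in steps of whole reads, which placed the normalising total of the vehicle library near 27103826 reads and that of the MA4-022-1 library near 19883783. For a transcript of 2000 nt, 1 read then corresponds to 0.0205 and 0.0279 RPKM. All 10 prostate luminal markers were expressed in both libraries, for example TMPRSS2 at 251 and 310 RPKM and HOXB13 at 54.8 and 31.7 RPKM. KLK2 and KLK3 shared 1 joined row. Of the 10 markers 5 were lower with MA4-022-1, and all 10 lay within 2-fold. The basal keratin KRT5, the fibroblast gene LUM and the endothelial genes PECAM1 and KDR were listed at 0 in both. Of the reported markers of basal, fibroblast, endothelial and leukocyte cells, only COL1A1, at 1.19 and 5.03 RPKM, and CD68 reached 1 RPKM, and CD68 was measured only in a row joined with other symbols.

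Every member had a lower value with MA4-022-1 than with vehicle, as did 51.3% of all expressed symbols and 55.7% of the protein-coding ones. Most members were lower by more than 2-fold. The measure is the log2 ratio of RPKM + 1, MA4-022-1 over vehicle, which understates the change of low genes. By it 36 of 51 members were at least 2-fold lower and none was at least 2-fold higher. Over all expressed symbols 9.26% were lower to that extent and 7.39% higher, and over expressed protein-coding symbols these shares were 9.02% and 3.9%. The median log2 ratio of the members was -1.45, a 2.73-fold lower level, beside -0.02 for all expressed symbols and -0.09 for protein-coding symbols. At a threshold of 1.5-fold 43 members were lower, against 20.3% of expressed symbols. At 3-fold 16 were, against 3.19%, and 8 were at least 4-fold lower. The scale bears on the background more than on the members. Setting 11 housekeeping genes to a median of 0 raised the MA4-022-1 values by 0.18 on the log2 scale, and equalising the sums lowered them by 0.17. The share of higher genes among all those beyond 2-fold was 44.4% as deposited, 59.4% on the housekeeping scale and 32.7% with equal sums. With a pseudocount of 0.1 in place of 1 the count of lower members was 39, against 12.9%. On the housekeeping scale it was 35, against 7.03%, and CKAP5 alone turned above 0, at 0.05. In libraries of whole cultures, fewer cells in G2 and M phase and less RNA per such cell cannot be told apart.

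**Figure D1:**
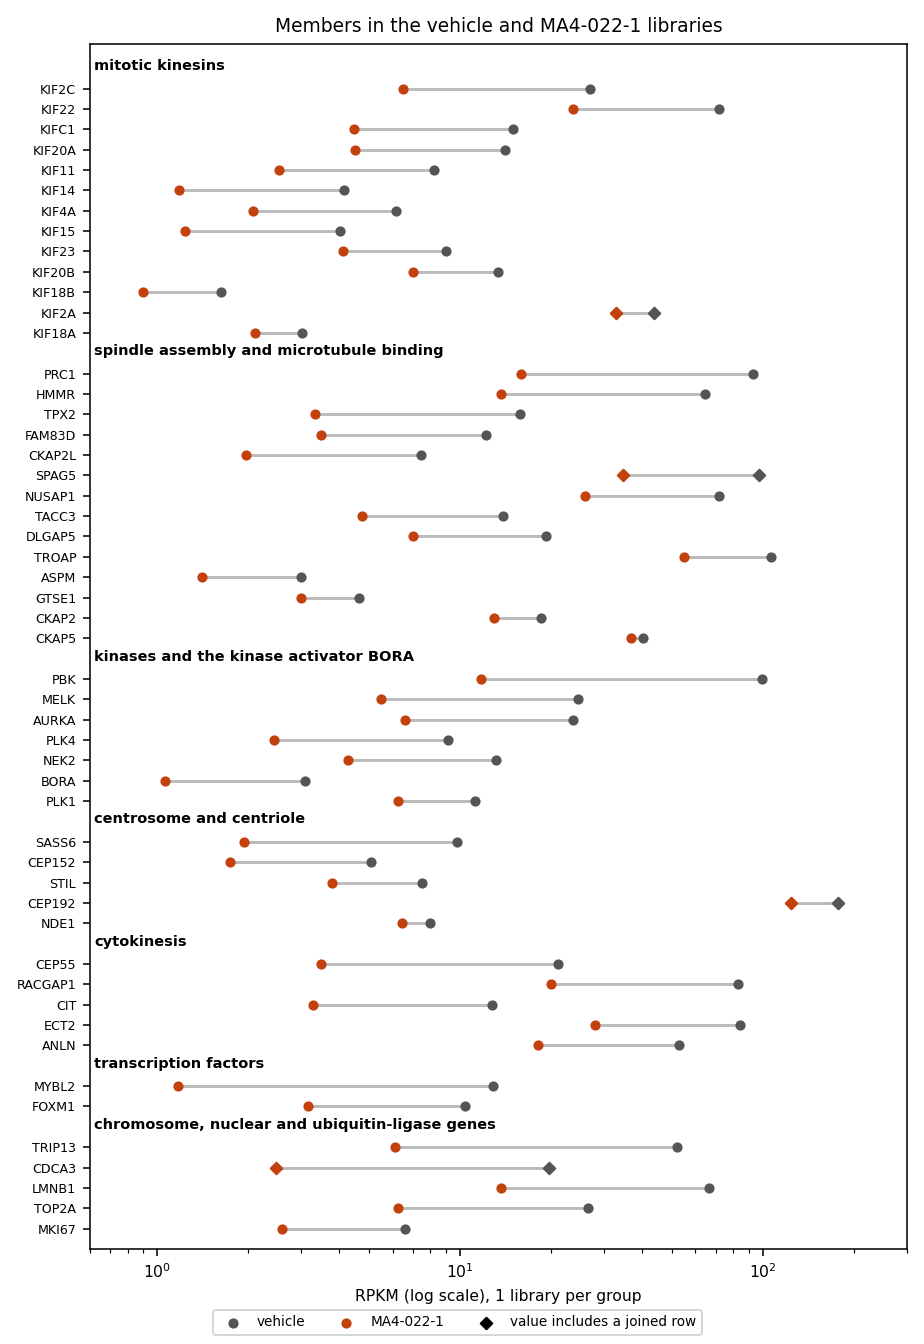
RPKM of each of the 51 members on a log axis, grouped by function, with the vehicle library in grey and the MA4-022-1 library in orange, joined by a line. Diamonds mark values that include a row joined with other symbols. The orange point lies left of the grey one for every member, and the gap is narrowest for CKAP5 at 40.2 and 36.7 RPKM.

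In the vehicle library the members ran from 1.63 RPKM for KIF18B to 178 RPKM for the joined row of CEP192, with a median of 14.1 RPKM, and with MA4-022-1 the median was 4.51 RPKM. With vehicle 13 members stood at 50 RPKM or more and 34 at 10 RPKM or more, and in the MA4-022-1 library these numbers were 2 and 15. The order of the members was largely kept, with a Spearman coefficient of 0.88 between the libraries over 51 genes. That coefficient is a description across genes, which share both libraries and are not replicates. KIF2A, SPAG5, CEP192 and CDCA3, whose values include a joined row, were given no interval, although KIF2A also has a row of its own. For the 47 members without a joined row, reads were estimated from the RPKM and an annotated transcript length. They ran from 112 to 3985 reads with vehicle and from 45 to 1051 with MA4-022-1. These reads scale with the length assumed, so short partial transcript models lower them for some genes, such as TOP2A at 579 nt. The 95% counting interval of the plain RPKM ratio, without the added 1, lay wholly beyond 2-fold lower for 35 of the 47, reached across 2-fold for 7 and lay wholly inside it for 5. These 5 were KIF18A, CKAP5, CKAP2, GTSE1 and NDE1, and the intervals of CKAP5 and NDE1 also included no difference. Those 2 rest on short median transcript lengths of 832 and 715.5 nt, and a longer length would narrow them. All such intervals cover counting error only.

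Promoters of most matched members, though not of all functional groups alike, share a sequence feature already known from G2 and M phase genes. Its share among members listed for their part in mitosis is therefore not independent of that choice. The cell-cycle genes homology region, or CHR, with the core TTTGAA, is the element through which MuvB complexes bind G2 and M phase genes, often downstream of CCAAT boxes bound by NF-Y. RefSeq promoters (build GRCh38.p14, 250 bases before to 50 after the start) were matched for 44 of 51 members. TPX2, TROAP, FAM83D, AURKA, PBK, RACGAP1 and FOXM1 had no entry. The core TTTGAA or its reverse complement TTCAAA was present in 30 of 44 member genes, or 68.2%, against 15.2% of all 35116 promoters and 13.5% of 9026 expressed protein-coding genes. Here and below a gene counts if any of its promoters holds the motif, whereas the share of all promoters counts each promoter singly. The like comparison is therefore with genes. Within 50 bases of the start, a window chosen after the positions were seen, it was present in 24 members, or 54.5%, against 4.6% of promoters and 4.1% of expressed protein-coding genes. Of 44 matches in the members' promoters 28 lay in that window. By group, the window held the core in 8 of 13 kinesins, 8 of 11 spindle assembly genes and 2 of 5 kinases. It did so in 4 of 4 cytokinesis genes, 0 of 5 centrosome and centriole genes and 0 of 1 transcription factor. Of the chromosome, nuclear and ubiquitin-ligase genes 2 of 5 had it there. Below are the 6 promoters with the core whose genes had the lowest ratios among members at 10 RPKM or more in the vehicle library, from base -220 to base 20 of the start, in gene orientation. Capitals mark TTTGAA or TTCAAA, and CCAAT or its reverse complement ATTGG, which overlap where they share bases.
CDCA3: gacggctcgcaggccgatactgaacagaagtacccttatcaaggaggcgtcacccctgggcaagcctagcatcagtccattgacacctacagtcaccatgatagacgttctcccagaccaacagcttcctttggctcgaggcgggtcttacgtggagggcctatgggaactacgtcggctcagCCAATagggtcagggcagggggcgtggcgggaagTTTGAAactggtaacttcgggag
PRC1: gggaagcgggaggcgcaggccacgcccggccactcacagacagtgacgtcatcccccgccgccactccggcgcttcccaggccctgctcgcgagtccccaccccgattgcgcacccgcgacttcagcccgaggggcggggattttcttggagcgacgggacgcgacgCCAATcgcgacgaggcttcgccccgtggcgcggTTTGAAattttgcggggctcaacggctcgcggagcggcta
CEP55: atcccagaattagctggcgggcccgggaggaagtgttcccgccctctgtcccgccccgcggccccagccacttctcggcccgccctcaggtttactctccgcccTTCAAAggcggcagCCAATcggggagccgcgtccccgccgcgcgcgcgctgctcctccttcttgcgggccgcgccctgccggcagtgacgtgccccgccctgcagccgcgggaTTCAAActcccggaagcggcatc
HMMR: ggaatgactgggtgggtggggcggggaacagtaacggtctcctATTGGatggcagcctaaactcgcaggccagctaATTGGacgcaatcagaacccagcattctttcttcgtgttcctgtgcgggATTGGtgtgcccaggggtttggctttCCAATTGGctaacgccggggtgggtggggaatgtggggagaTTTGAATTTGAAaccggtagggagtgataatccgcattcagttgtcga
TOP2A: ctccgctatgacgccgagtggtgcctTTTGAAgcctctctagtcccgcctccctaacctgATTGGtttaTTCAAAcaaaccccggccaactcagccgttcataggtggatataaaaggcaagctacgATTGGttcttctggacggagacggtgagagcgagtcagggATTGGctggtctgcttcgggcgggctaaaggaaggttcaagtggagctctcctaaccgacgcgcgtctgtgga
CIT: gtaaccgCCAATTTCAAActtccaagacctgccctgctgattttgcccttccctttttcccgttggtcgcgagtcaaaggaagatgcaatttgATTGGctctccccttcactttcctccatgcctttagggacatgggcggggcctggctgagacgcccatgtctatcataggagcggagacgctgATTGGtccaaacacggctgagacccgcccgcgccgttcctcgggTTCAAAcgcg
Their positions on GRCh38.p14 are CDCA3 chr12:6851267-6851506 on the minus strand, PRC1 chr15:90994516-90994755 on the minus strand, CEP55 chr10:93496392-93496631 on the plus strand, HMMR chr5:163460412-163460651 on the plus strand, TOP2A chr17:40417877-40418116 on the minus strand, CIT chr12:119877301-119877540 on the minus strand. The core began 3 bases before the start in CDCA3 and CEP55 (position -3), at -20 in PRC1 and as a direct repeat at -28 and -22 in HMMR. In TOP2A both matches lay farther out, at -194 and -151, and in CIT they lay at -208 and at 11.

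**Figure D2:**
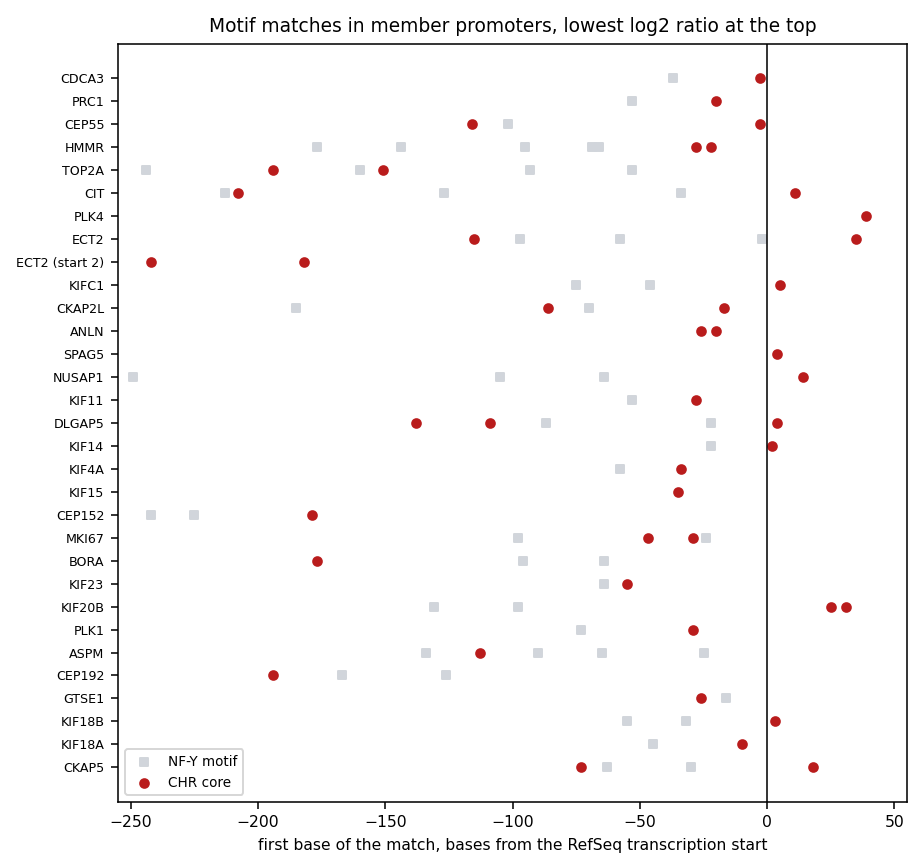
Positions of the CHR core (red) and the NF-Y motif (grey) in RefSeq promoters of the 30 members that hold the CHR core, in bases from the transcription start, with the lowest log2 ratio at the top. Red points gather around the start, with 28 of 44 matches within 50 bases of it.

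Members with the core in the whole 300 bases had a median log2 ratio of -1.29 and those without it -1.51, and 20 of 30 and 10 of 14 were at least 2-fold lower. Within 50 bases of the start the medians were -1.41 with the core and -1.39 without, and 18 of 24 and 12 of 20 were lower to that extent. Among 8982 expressed protein-coding genes that are not members, 350 held the core in that window. Only the members were taken out here, so other cell-cycle genes can be among them. Of the 350 with the core 18.9% were at least 2-fold lower, against 7.7% of those without it, and 4.3% against 3.7% were at least 2-fold higher. In the whole 300 bases 1188 held it, of which 12% lay beyond 2-fold on the lower side, against 7.5% of those without it, and 3.5% against 3.8% on the higher side. CCAAT or ATTGG was found in 33 of 44 members, or 75.0%, and in 34.6% of all promoters and 44.1% of expressed protein-coding genes. Both the core and CCAAT were present in 27 members. The variant TTTAAA was found in 10 members, or 22.7%, against 12.2% of promoters and 10.6% of expressed protein-coding genes. The E2F letters TTTCGCGC, TTTGGCGC or TTTCCCGC, on either strand, were found in 4 members, or 9.1%, against 2.7% of promoters and 5.5% of expressed protein-coding genes. A match is a string of letters and not a measured binding site.

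Of 13 mitotic kinesins 8 were at least 2-fold lower and the other 5 lay within 2-fold, with a median log2 ratio of -1.22. KIF2C, which depolymerises microtubules at kinetochores, had the lowest ratio of them, at 26.9 RPKM with vehicle and 6.48 with MA4-022-1, a log2 ratio of -1.90 (hg19 chromosome 1, 45205490 to 45244451). Its plain ratio was 4.15-fold lower, with a counting interval of 3.41 to 5.09. KIF22, a chromokinesin that pushes chromosome arms outward, was the most abundant of those with a row of their own, at 71.5 and 23.6 RPKM. KIFC1, the minus-end motor that clusters poles, stood at 15.0 and 4.47 RPKM, a log2 ratio of -1.55. These 3 motors were expressed at different levels and were all about 3-fold lower or more by plain ratio.

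The motors that push the poles apart were low in both libraries. KIF11, or Eg5, slides antiparallel microtubules and stood at 8.23 and 2.52 RPKM, and KIF15, which can stand in for it, at 4.02 and 1.24 RPKM. Their plain ratios were 3.26-fold and 3.25-fold lower, with counting intervals of 2.82 to 3.77 and 2.55 to 4.20, so the pair differed by less than its counting error. Motors of the central spindle gave a wider range. KIF20A, which carries the chromosomal passenger complex there, stood at 14.1 and 4.51 RPKM, KIF4A, the partner of PRC1, at 6.16 and 2.07, and KIF14, which recruits citron kinase, at 4.14 and 1.19. KIF23, the motor of centralspindlin, was just inside the threshold at 8.98 and 4.11 RPKM, a log2 ratio of -0.97, and its plain ratio of 2.18 had an interval of 1.89 to 2.52. KIF4B, the near-identical intronless copy of KIF4A, was at 0.0262 RPKM with vehicle and listed at 0 with MA4-022-1, so few reads were assigned to it.

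The kinesins with the smallest differences were KIF18A, at 3.00 and 2.10 RPKM, and KIF2A. KIF18A damps chromosome movement at the plate, and its relative KIF18B was at 1.63 and 0.898 RPKM, with a plain ratio of 1.82 and a wide interval of 1.28 to 2.64. KIF20B, which acts late in cytokinesis, stood at 13.3 and 7.003 RPKM. KIF2A, a depolymerising motor of the poles that also works in resting cells, had 2 rows that differed. The row joined with IPO11 and LRRC70 was at 38.5 and 31.3 RPKM, a log2 ratio of -0.29, and the row of KIF2A alone at 5.16 and 1.51 RPKM, a ratio of -1.30. Summed, they gave -0.40, so KIF2A counted as within 2-fold, and with its own row alone it was beyond it.

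Among 26 kinesins outside the list, most of them transport motors, 19 were expressed, 2 were at least 2-fold lower, 2 at least 2-fold higher and 15 within 2-fold, with a median log2 ratio of 0.24. KIFC2 and KIFC3, minus-end motors like KIFC1, were the higher ones, at 9.20 and 33.9 RPKM and at 3.20 and 8.74 RPKM. The lower ones, named after their values were seen, were KIF24, which acts at centrioles, at 3.37 and 0.659 RPKM, and KIF21A, at 59.0 and 28.9 RPKM. KIF5B, the conventional kinesin, stood at 87.4 and 104 RPKM. The log2 ratios of these 19 genes ran from -1.40 to 1.78 and overlapped those of the mitotic kinesins, which ran from -1.90 to -0.37.

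**Figure D3:**
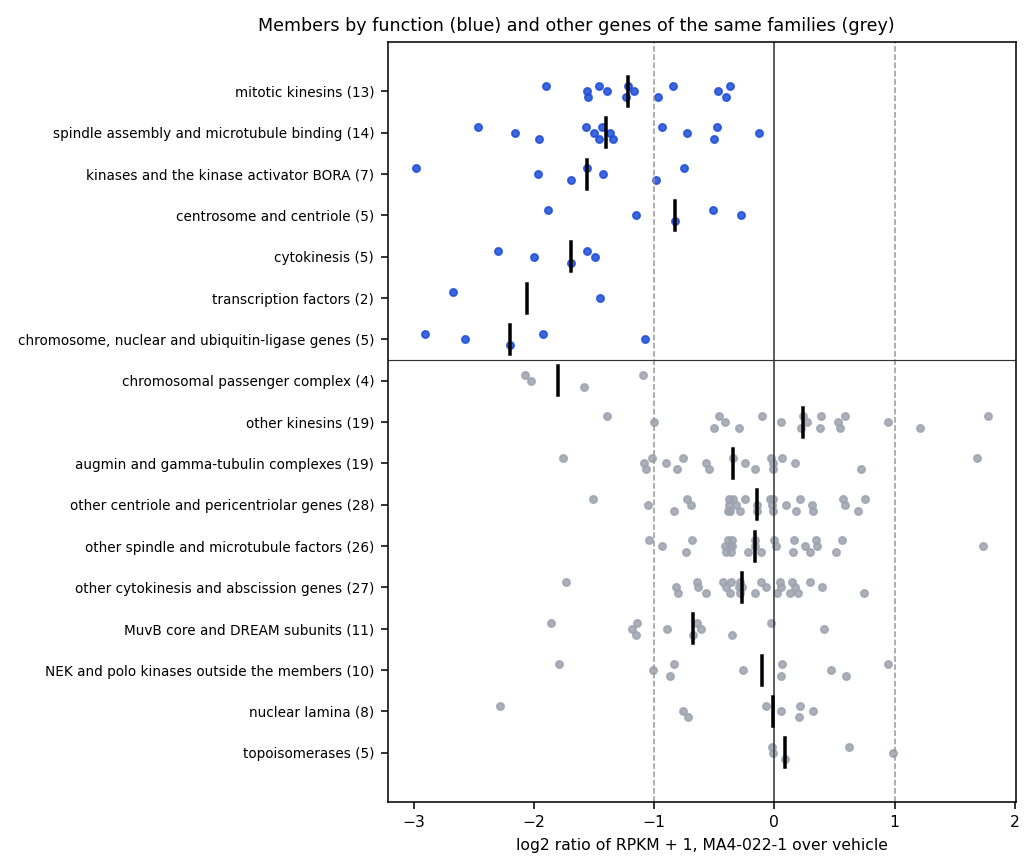
Log2 ratio of RPKM + 1, MA4-022-1 over vehicle, for each member by functional group (blue) and for expressed genes of 10 related lists (grey). Numbers in brackets are genes plotted, black bars are medians and dashed lines mark 2-fold. No blue point lies right of 0, whereas the medians of the grey lists other than the chromosomal passenger complex lie between -0.68 and 0.24.

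Of 14 spindle assembly and microtubule-binding genes 9 were at least 2-fold lower, with a median of -1.40. PRC1, which bundles the antiparallel microtubules of the central spindle, stood at 92.8 and 15.9 RPKM, a log2 ratio of -2.47 (hg19 chromosome 15, 91509270 to 91538859). HMMR, a spindle pole protein also known as a hyaluronan receptor, was at 64.5 and 13.7 RPKM, a log2 ratio of -2.16. TPX2, which activates Aurora A on spindle microtubules, was at 15.8 and 3.32 RPKM, and its plain ratio was 4.76-fold lower with an interval of 4.13 to 5.52. The PRC1, HMMR and TPX2 values were the 3 lowest ratios of the group.

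The other members beyond 2-fold were FAM83D, CKAP2L, SPAG5, NUSAP1, TACC3 and DLGAP5, with log2 ratios from -1.57 to -1.34. NUSAP1, which crosslinks microtubules near chromatin, stood at 71.6 and 25.9 RPKM, and DLGAP5, which steadies kinetochore fibres, at 19.2 and 6.99. SPAG5, or astrin, was measured only in a row joined with SGK494 and RP11-192H23.4, at 96.9 and 34.6 RPKM, so its share cannot be told apart from theirs. Its antisense gene SPAG5-AS1 stood at 8.64 and 7.32 RPKM. Partners did not go alike. TACC3 and CKAP5, the latter a microtubule polymerase, act together on kinetochore fibres. TACC3 was at 13.8 and 4.76 RPKM and CKAP5 at 40.2 and 36.7 RPKM, with plain ratios of 2.90 (counting interval 2.18 to 3.94) and 1.10 (0.972 to 1.23). CKAP2 and CKAP2L, related in sequence, also stood apart, at 18.5 and 12.98 RPKM and at 7.43 and 1.97 RPKM. TROAP, at 106 and 54.9 RPKM, was just inside 2-fold, ASPM, a pole protein, was at 2.98 and 1.41 RPKM, and GTSE1 at 4.66 and 2.98.

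Of 26 expressed spindle and microtubule factors outside the list 24 lay within 2-fold, 1 was lower and 1 higher. Their median log2 ratio was -0.16. They were KNSTRN, the kinetochore partner of astrin, at 41.3 and 19.5 RPKM, and MAPRE2, an end-binding protein, at 2.81 and 11.7 RPKM. The chromosomal passenger complex was lower in all 4 subunits, with a median of -1.80. AURKB, its kinase, stood at 24.7 and 5.31 RPKM and BIRC5, survivin, at 94.9 and 21.8 RPKM.

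Kinases followed, with 5 of 7 members of that group at least 2-fold lower and a median of -1.56. PBK, a mitotic kinase, had the lowest ratio of all 51 members, at 99.6 and 11.8 RPKM, a log2 ratio of -2.98, and its plain ratio of 8.47 had an interval of 7.53 to 9.55. MELK was at 24.5 and 5.51 RPKM and AURKA, Aurora A, at 23.6 and 6.61 RPKM. NEK2, which parts the centrosomes, was at 13.1 and 4.27 RPKM. The polo kinases differed from each other. PLK4, which starts centriole duplication, stood at 9.16 and 2.44 RPKM, with a plain ratio of 3.75 and an interval of 3.13 to 4.51. PLK1, which acts through most of mitosis, stood at 11.2 and 6.25 RPKM, with a plain ratio of 1.79 and an interval of 1.34 to 2.46, and the intervals did not overlap. BORA, which helps Aurora A to activate PLK1, was at 3.09 and 1.07 RPKM. Its log2 ratio of -0.99 was just inside 2-fold, although its plain ratio was 2.90-fold lower, with an interval of 2.06 to 4.07. Of 10 expressed NEK and polo kinases outside the list 2 were at least 2-fold lower and none higher, with a median of -0.10. NEK11 was at 6.56 and 1.19 RPKM, and PLK3, named after its values were seen, at 4.02 and 1.49. NEK8 was at 4.34 and 9.28 RPKM, within 2-fold.

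The centrosome and centriole group had the smallest median difference of the 7 groups, with 2 of 5 members at least 2-fold lower and a median of -0.83. SASS6, the protein of the centriole cartwheel, stood at 9.80 and 1.93 RPKM, a log2 ratio of -1.88, and its plain ratio of 5.07 had an interval of 4.26 to 6.11. STIL, which binds SASS6 and PLK4 in the same step, was at 7.48 and 3.78 RPKM, a plain ratio of 1.98 with an interval of 1.74 to 2.25 that did not overlap that of SASS6. CEP152, the scaffold that brings PLK4 to the mother centriole, was at 5.11 and 1.74 RPKM. CEP192, which gathers pericentriolar material, was measured only in a row joined with SEH1L, at 178 and 124 RPKM. NDE1, a dynein regulator, stood at 7.99 and 6.43 RPKM, and its interval, at a short assumed transcript length, included no difference.

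Other centriole and pericentriolar genes gave 2 of 28 at least 2-fold lower, none higher and a median of -0.14. POC1A and CCP110, both centriole proteins, were at 8.66 and 2.39 RPKM and at 15.5 and 6.94 RPKM. Of 19 augmin and gamma-tubulin genes, which nucleate microtubules, 14 lay within 2-fold, 4 were lower and 1 was higher, and the median was -0.34. The lower ones were all augmin subunits. HAUS8 was at 13.02 and 3.15 RPKM, and HAUS1, HAUS2 and HAUS7, named after their values were seen, had log2 ratios of -1.09, -1.07 and -1.01. HAUS7 was measured only in a row joined with TREX2. The higher gene was TUBG2, at 4.33 and 16.1 RPKM, while TUBG1, the main gamma-tubulin of dividing cells, was at 31.0 and 17.9 RPKM.

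All 5 cytokinesis genes were at least 2-fold lower, with a median of -1.69 and log2 ratios from -2.30 to -1.49. CEP55, which calls the abscission machinery to the midbody, stood at 21.1 and 3.49 RPKM, with a plain ratio of 6.06 and an interval of 4.92 to 7.47. RACGAP1 and ECT2 activate RhoA at the equator as a pair. RACGAP1 was at 82.6 and 19.96 RPKM and ECT2 at 84.2 and 27.9 RPKM, and the plain ratios were 4.14-fold lower (interval 3.47 to 4.96) and 3.02-fold lower (2.66 to 3.44). ANLN, the scaffold of the ring, was at 52.7 and 18.1 RPKM, and CIT, citron kinase, at 12.8 and 3.26 RPKM. Downstream effectors that serve other tasks as well differed. Of 27 such genes of the ring, septins and abscission 1 was at least 2-fold lower, none was higher and the median was -0.27. That gene was SEPT9, at 32.4 and 9.06 RPKM, whereas RHOA itself stood at 219 and 223 RPKM. CHMP6, an abscission subunit, was at 12.2 and 6.46 RPKM, within 2-fold.

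Both transcription factors were at least 2-fold lower. MYBL2 stood at 12.8 RPKM with vehicle and 1.17 with MA4-022-1 (hg19 chromosome 20, 42295754 to 42345136). Its log2 ratio was -2.67 and its plain ratio 10.95-fold lower, the largest plain ratio of the 51 members, with an interval of 8.33 to 14.5. FOXM1 was at 10.4 and 3.16 RPKM, a log2 ratio of -1.45 and a plain ratio of 3.28 with an interval of 2.82 to 3.85. Of 11 subunits of the MuvB core and the repressive DREAM complex 4 were at least 2-fold lower and none higher, with a median of -0.68. LIN9, of the core, was at 11.9 and 2.57 RPKM and RBL1, p107, at 21.0 and 8.70 RPKM. LIN54, the subunit that binds the CHR, and E2F5, both named after their values were seen, had log2 ratios of -1.15 and -1.14, while E2F4 stood at 31.9 and 42.8 RPKM.

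The remaining 5 genes, of chromosomes, nuclear envelope and protein destruction, were all at least 2-fold lower, with a median of -2.20. TRIP13, which takes the spindle checkpoint complex apart, stood at 52.2 and 6.09 RPKM, a log2 ratio of -2.91 and a plain ratio of 8.57. CDCA3, a trigger of mitotic entry, was measured in a row joined with U47924.25, at 19.7 and 2.48 RPKM. LMNB1, lamin B1, was at 66.3 and 13.7 RPKM, and TOP2A, which untangles sister chromatids, at 26.5 and 6.26 RPKM. MKI67, the Ki-67 antigen that coats mitotic chromosomes, had the smallest difference of the 5, at 6.58 and 2.59 RPKM, a log2 ratio of -1.08. On the housekeeping scale it was at -0.95, and 4 of the 5 were then at least 2-fold lower.

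Paralogues of TOP2A and LMNB1 that resting cells also use lay within 2-fold as deposited. TOP2B stood at 164 and 326 RPKM, 1.98-fold higher on the scale of RPKM + 1, so the isoforms went in opposite directions. No topoisomerase of the 5 outside the list was beyond 2-fold, and TOP3B was at 5.31 and 8.73 RPKM. LMNB2, in a joined row, was at 216 and 127 RPKM and LMNA at 42.2 and 53.1 RPKM. Of 8 nuclear lamina genes TMPO, a lamin-binding protein, was the 1 gene at least 2-fold lower, at 101 and 19.9 RPKM, and none was higher.

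**Figure D4:**
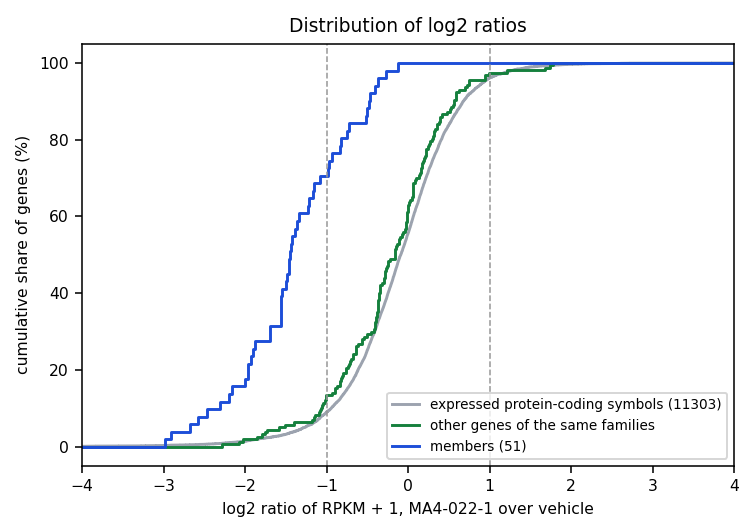
Cumulative share of genes by log2 ratio of RPKM + 1 for the 51 members (blue), for expressed genes of the 10 related lists (green) and for 11303 expressed protein-coding symbols (grey), with dashed lines at 2-fold. The blue curve has a median of -1.45 and lies left of the grey one over most of its range, while the grey curve reaches lower values than any member, and the green curve runs near the grey one.

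Across the 10 related lists 157 of 167 genes were expressed, 21 were at least 2-fold lower and 4 higher, and the median was -0.16. Over expressed protein-coding symbols 9.02% were at least 2-fold lower and 3.9% higher, and the counts of the single lists stand beside the same shares. The members and these relatives were not compared by a test, since each group held 1 library. Over 51 members the log2 ratio of RPKM + 1 had a Spearman coefficient of -0.46 with the log2 vehicle level, and the added 1 shrinks low genes by construction. The plain log2 ratio had one of -0.25 with that level, and over the 47 without a joined row one of 0.12 with transcript length. These are descriptions across genes that share the same 2 libraries, and those with level have the vehicle value on both sides.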

How the data were processed

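The authors deposited, for each of 2 libraries, a table of 62271 rows with a locus, a symbol and an RPKM value, per the file headers. Libraries were made with ScriptSeq from RNA without ribosomal RNA and read from a single end, per the labels' protocols. TopHat2 2.0.13, Cufflinks 2.2.1 and hg19 are named in the submitters' processing notes. Rows without a symbol, 2751 in all, held 29.6% and 23.3% of summed RPKM and were left out, as were short RNAs. Rows were summed per symbol, and a joined row entered each of its symbols. Loci are given 1-based and can span neighbours.

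The measure was log2 of RPKM + 1, MA4-022-1 over vehicle, for symbols at 1 RPKM or more in a library, called at 2-fold. RPKM are not counts, so no count test was run. Totals were fitted to values of up to 5 reads in single-exon processed pseudogenes of 600 to 6000 nt. Of 199 such values with vehicle 197 and of 153 with MA4-022-1 151 lay within 2% of a whole read. Intervals are exact binomial (Clopper-Pearson, 95%). They assume the median protein-coding transcript length of GENCODE release 29, whose short partial models widen some of them.

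Members, lists and motifs were chosen with earlier results of these data known. Named genes were all members and, in each related list, the 2 with the largest absolute log2 ratio at 5 RPKM or more. KIF5B, RHOA, TUBG1, E2F4 and LMNA, relatives of members, were named after their values were seen, as were the genes so marked in the text. Promoters are from RefSeq, whose synonyms also matched CEP131, CEP83 and KNSTRN to older symbols. Other pseudocounts, filters, scalings, thresholds and ways of handling rows were tried. Steps were tested on simulated data. Python 3.11.15, numpy 2.4.6, pandas 2.3.3, scipy 1.17.1 and matplotlib 3.10.9 were used.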

Additional observations from a re-analysis of the deposited data

How the results depend on the processing

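No paired analysis was possible because each group held 1 library. The count of 36 members at least 2-fold lower ranged from 25 to 39 over the 9 alternatives of pseudocount, filter, scaling and row handling. No member was at least 2-fold higher under any of them. Over all expressed symbols the lower share was 9.26% as deposited, 12.9% with a pseudocount of 0.1 and 7.03% on the housekeeping scale. It was not computed for the other alternatives, so the count of 25, at a pseudocount of 5, has no background beside it. The count of lower members was 43 at 1.5-fold and 16 at 3-fold, against 20.3% and 3.19% of expressed symbols. With a pseudocount of 5 the median of the members was -0.97, and the counts of lower genes were 4 of 13 kinesins, 3 of 7 kinases, 1 of 5 centrosome genes and 1 of 2 transcription factors. A threshold of 3-fold left 1 kinesin, 3 spindle assembly genes, 3 kinases, 1 centrosome gene, 3 cytokinesis genes and 1 transcription factor. It also left 4 of the 5 chromosome, nuclear and ubiquitin-ligase genes. Larger pseudocounts shrink low genes by construction. Otherwise the median lay between -1.60 and -1.29. Of single members, CKAP5 turned above 0 on the housekeeping scale, at 0.05, where MKI67 was at -0.95 and 4 of 5 genes of its group were lower, and KIF2A reached -1.30 with single-symbol rows only. CEP192, SPAG5 and CDCA3 have no such row, and 44 members reached 5 RPKM. What depth allows differs by gene. The intervals of CKAP5 and NDE1 included no difference at reads estimated from short median transcript lengths of 832 and 715.5 nt. A longer length would give more reads and narrower intervals, so these 2 intervals do not show what the depth could detect.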

Other observations

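Other genes at the members' loci were read as a comparison chosen after the data were seen. The deposited loci of 13 members also held 20 expressed protein-coding symbols with rows of their own, which had a median log2 ratio of -0.03, with 3 at least 2-fold lower and 3 higher. Over all expressed protein-coding symbols 9.02% were lower to that extent and 3.9% higher. With symbols not annotated as protein-coding included, 37 symbols at the loci of 21 members had a median of -0.23. Of these 6 were lower and 6 higher, beside 9.26% and 7.39% of all expressed symbols. At the locus of KIF20A, which had a log2 ratio of -1.46, BRD8, a chromatin gene, stood at 53.0 RPKM with vehicle and 53.2 with MA4-022-1, and CDC23, a subunit of the anaphase-promoting complex, at 32.3 and 20.6 RPKM. At the locus of FOXM1, FKBP4, a co-chaperone of steroid receptors, was at 244 and 235 RPKM and ITFG2 at 11.7 and 34.4 RPKM. At the locus of PBK, ESCO2, which acetylates cohesin in S phase, was at 43.9 and 4.97 RPKM, and CCDC25 at 66.9 and 41.2 RPKM.

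E2F letters within 50 bases of the start, a window chosen after positions were seen, were found in 3 of 44 members, or 6.8%, against 0.8% of promoters and 1.8% of expressed protein-coding genes. Among 8982 expressed protein-coding genes outside the list, 156 held them there, of which 23.7% lay beyond 2-fold on the lower side and 1.3% on the higher side, against 7.8% and 3.8% of those without. The median log2 ratio was -0.44 with them and -0.07 without. In the whole 300 bases 496 such genes held them, of which 13.9% lay beyond 2-fold on the lower side and 2.4% on the higher side, against 7.8% and 3.8% of those without, and the medians were -0.21 and -0.07. Other cell-cycle genes were not taken out of these non-members. The shares are descriptions of 2 libraries and no test was made.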
